A study of Mus musculus with 12 samples.

Results

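Haemoglobin and erythroid transcripts were followed across skeletal muscle and hypothalamus of B6.CAST-17 congenic and wild type B6 mice as a measure of the blood carried into each RNA sample. The set was defined by name: every probe annotated to Hba-a1, Hbb-b1, Hbb-b2, Alas2 or Slc4a1 was taken, whatever its values. Of these 5 genes, 4 had a probe, with 4 probes among the 33012 on the array. Hba-a1, Alas2 and Slc4a1 each had a probe of their own. The remaining probe was annotated to both Hbb-bt and Hbb-b2 and is called the beta-globin probe below, since the annotation names no single gene for it. No probe was annotated to Hbb-b1. In all, 14251 genes were named by a probe of the array.

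RNA came from male mice of 2 strains: the homozygous congenic B6.CAST-17, in which a segment of chromosome 17 of the wild-derived CAST strain lies on the B6 background, and wild type B6. Each strain was hybridised to 3 one-colour chemiluminescent arrays per tissue, which gave 12 arrays in 4 groups: congenic muscle, wild type muscle, congenic hypothalamus and wild type hypothalamus. The labels give no age and name no perfusion of the tissues, and they call only the hypothalamus congenics short, so whether 1 mouse gave both of its tissues, and whether 1 congenic line was used throughout, is not settled. Groups were read from the titles, since the descriptions name the congenic strain on wild type samples as well. Values are log2 intensities as deposited. The base is named nowhere and was inferred from a range of 5.35 to 21.13, so each fold change assumes base 2, and the number of arrays limits the precision.

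Adult haemoglobin is a tetramer of alpha and beta chains, each holding a haem group. Circulating reticulocytes, the youngest red cells, still carry globin mRNA at very high abundance, so globin signal in RNA of a solid tissue is commonly read as blood left in its vessels, although some other cell types, neurons among them, have been reported to express globins at low level. Hba-a1 encodes alpha-globin. Hbb-b1 and Hbb-b2 name the adult beta-globin genes of one mouse haplotype, and Hbb-bs and Hbb-bt are those of the haplotype that B6 carries. Alas2 is the erythroid form of the first enzyme of haem synthesis. Slc4a1 encodes band 3, the anion exchanger of the red cell membrane.

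The genes lie outside chromosome 17: Hba-a1 and Slc4a1 on chromosome 11, the beta-globin genes on chromosome 7 and Alas2 on chromosome X. The region around the start site is shown for the globin genes and Alas2, whose probes correlated in muscle, as held by RefSeq for GRCm38.p6. The beta-globin probe is shown through Hbb-bt, the only one of its annotated genes with an entry. Over 297 aligned bases around the start site, the Hba-a1 and Hba-a2 regions were identical at all 297. The sequence of the Hba-a1 probe was not at hand, so whether it also reads Hba-a2 was not tested. RefSeq also places an alpha-globin pseudogene, Hba-ps4, on chromosome 17, for which no probe was named, and its part in the Hba-a1 signal was not tested. Capitals mark matches on either strand to a GATA word (AGATAA or AGATAG or TGATAA or TGATAG), the CACCC-type word CCNCNCCC, CCAAT or TATAA.
Hba-a1 (chr11:32283422-32283721, plus strand): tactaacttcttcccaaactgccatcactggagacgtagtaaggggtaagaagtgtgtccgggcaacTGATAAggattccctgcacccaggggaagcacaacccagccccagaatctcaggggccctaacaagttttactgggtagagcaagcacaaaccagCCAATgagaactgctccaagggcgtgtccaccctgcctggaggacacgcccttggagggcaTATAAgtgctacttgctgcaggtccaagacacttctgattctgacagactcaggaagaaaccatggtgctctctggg
Hbb-bt (chr7:103813874-103814173, minus strand): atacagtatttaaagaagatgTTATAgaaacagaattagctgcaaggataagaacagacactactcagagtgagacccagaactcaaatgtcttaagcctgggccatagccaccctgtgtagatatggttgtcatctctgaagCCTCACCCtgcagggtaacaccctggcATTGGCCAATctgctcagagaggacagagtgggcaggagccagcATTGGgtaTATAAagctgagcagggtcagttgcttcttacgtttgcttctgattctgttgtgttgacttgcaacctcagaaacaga
Alas2 (chrX:150547167-150547466, plus strand): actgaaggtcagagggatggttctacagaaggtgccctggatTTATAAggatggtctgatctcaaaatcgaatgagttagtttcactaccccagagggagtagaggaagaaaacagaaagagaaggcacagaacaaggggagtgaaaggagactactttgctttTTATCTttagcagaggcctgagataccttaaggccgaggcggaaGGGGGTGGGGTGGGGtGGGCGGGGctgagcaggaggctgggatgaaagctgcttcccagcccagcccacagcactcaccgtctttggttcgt
GATA words, the binding sequence of erythroid GATA factors, stood once in the Hba-a1 region at -183 and once in that of Alas2 at -86, counted from the start site. TATAA began at -27 in Hba-a1 and at -28 in Hbb-bt, and farther out once more in Hbb-bt and on both strands in Alas2. CCAAT occurred 1 time in Hba-a1 and 3 times in Hbb-bt, and CCNCNCCC occurred 1 time in Hbb-bt and 4 times in Alas2, where 3 of the matches overlapped. No match to one motif overlapped a match to another. These words are common: 29.8% of all 32851 regions of this length held a GATA word, 49.5% CCNCNCCC, 37.4% CCAAT and 24.9% TATAA.

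The tissues carried their own markers. All 10 skeletal muscle genes measured were higher on every muscle array than on every hypothalamus array, and 5 of 8 neuronal genes were higher on every hypothalamus array than on every muscle array. Wild type hypothalamus array 1 stood apart from its tissue, and without it the neuronal count was 6 of 8. Its Spearman correlations with the other 5 hypothalamus arrays across probes were 0.420 to 0.461, against 0.775 to 0.853 among those 5 and 0.796 to 0.862 among the muscle arrays. Results for hypothalamus are therefore given with and without it. The arrays of each tissue shared 1 distribution of values, its median being 9.12 for muscle and 8.98 for hypothalamus, so the tissues were normalized apart. No detection calls were at hand, so a dim probe may hold background alone.

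Both globin probes were among the brightest on the muscle arrays and varied less there than in hypothalamus. Hba-a1 read 17.98, 18.34 and 18.94 (log2) in the 3 congenic muscles, against 17.67, 17.32 and 18.12 in the 3 wild type muscles. The beta-globin probe read 17.71, 18.05 and 18.60 in congenic muscle, against 17.51, 17.41 and 17.84 in wild type muscle. Congenic array 3 was the highest and wild type array 2 the lowest for both, and for both the lowest congenic array lay below the highest wild type array, so the groups overlapped. On every muscle array both probes stood at or above the 97.9th percentile of all probes.

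In hypothalamus the same probes were high on some arrays and far lower on others. Hba-a1 read 16.76, 17.73 and 13.58 in congenic hypothalamus, against 10.52, 15.42 and 15.59 in wild type hypothalamus. The beta-globin probe read 16.85, 16.83 and 13.79 in congenic hypothalamus, against 8.27, 15.22 and 15.33 in wild type hypothalamus. Wild type array 1 was the lowest for both probes and congenic array 3 the next lowest, while congenic arrays 1 and 2 were the highest. The spread of Hba-a1 over the hypothalamus arrays was 7.22 log2 units, or 4.16 without wild type array 1, against 1.62 over the muscle arrays. In a bulk sample, fewer red cells and less globin mRNA per red cell cannot be told apart. On wild type array 1, 28.0% of all probes lay below the other hypothalamus arrays and 38.1% above them. Of 8 neuronal genes 2 lay below, 2 above and 4 within. Those below, Tubb3 and Gap43, lay at -7.08 and -6.37 from the median of the other arrays. The beta-globin probe lay at -7.06 and Hba-a1 at -5.08. Whether the low globin values there reflect blood, or the array or its RNA, was not tested.

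**Figure D1:**
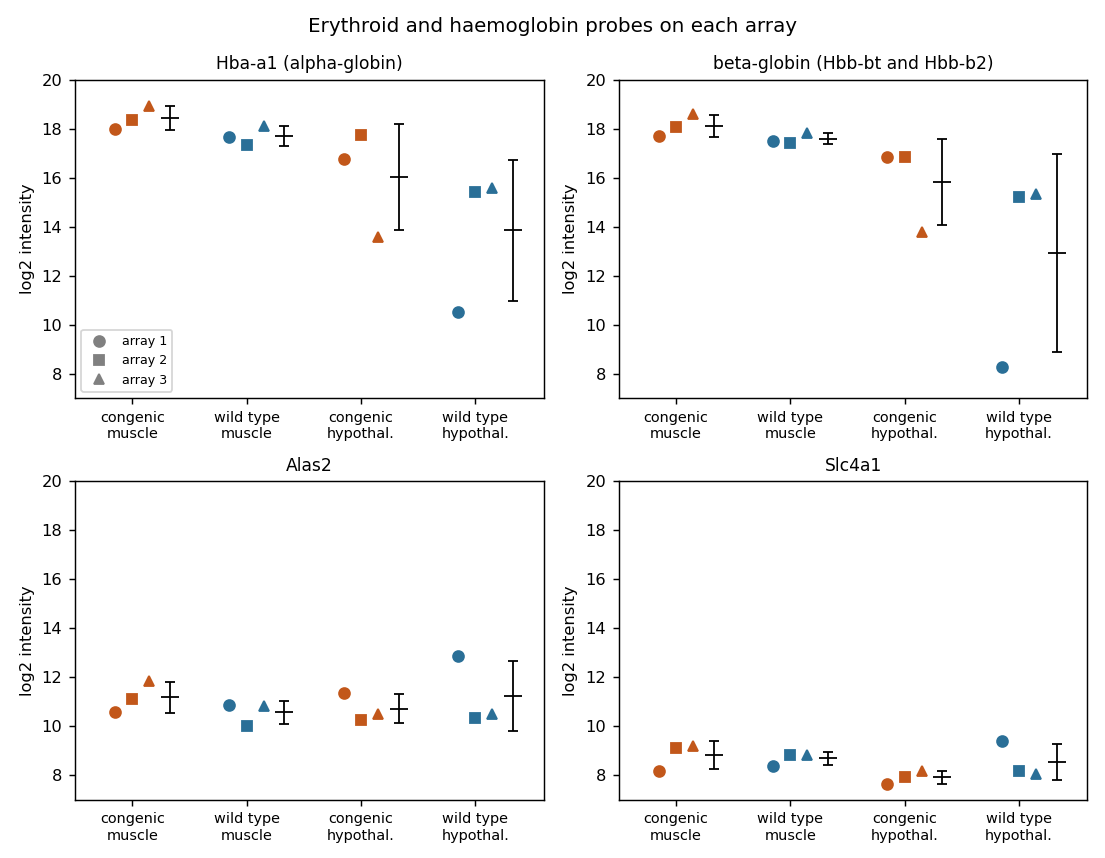
Log2 intensity (vertical axis) of the 4 erythroid and haemoglobin probes on each of the 12 arrays, by tissue and strain; each symbol is 1 array and the bars show mean and SD of the 3 arrays of a group. Both globin probes sit between 17.32 and 18.94 in muscle and between 8.27 and 17.73 in hypothalamus, with wild type hypothalamus array 1 lowest, while Alas2 and Slc4a1 are highest of their tissue on that array.

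Set against probes of every brightness, the within-group spread of the globins was ordinary in muscle and extreme in hypothalamus. Bright probes alone give another picture in muscle. Hba-a1 had SDs of 0.487 in congenic and 0.402 in wild type muscle. All 10 skeletal muscle genes had smaller ones, such as 0.201 and 0.103 for Acta1 and 0.382 and 0.342 for Pvalb. Myoglobin (Mb) had larger ones, 0.734 and 0.692. The within-group SD of Hba-a1 was 0.447 in muscle, at percentile 48.6 of all probes, and 2.55 in hypothalamus, at percentile 98.2. Without wild type array 1 the SD of Hba-a1 in hypothalamus was 1.78, at percentile 99.5. The SD of the beta-globin probe was 0.355 in muscle (percentile 34.9), 3.12 in hypothalamus (percentile 99.2) and 1.44 without wild type array 1 (percentile 98.1). The spread that was left lay in the congenic group, with SDs of 2.18 for Hba-a1 and 1.76 for the beta-globin probe, against 0.123 and 0.0723 over the 2 other wild type arrays. Congenic array 3 was the low one for both probes.

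Alas2, which supplies haem to the developing red cell, was of middling brightness. It read 10.57, 11.10 and 11.86 in congenic muscle, against 10.85, 10.02 and 10.84 in wild type muscle. In hypothalamus it read 11.38, 10.26 and 10.51 in congenic mice, against 12.88, 10.33 and 10.49 in wild type mice. Congenic array 3 was again the highest and wild type array 2 the lowest in muscle. In hypothalamus wild type array 1, on which the globins were lowest, held the highest value of Alas2 of all 12 arrays. On that array 38.1% of all probes lay above the other 5 hypothalamus arrays and 28.0% below them, and of the 4 probes 2 lay above and 2 below.

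Slc4a1, whose product anchors the red cell skeleton to the membrane, was dim throughout. It read 8.18, 9.13 and 9.18 in congenic muscle, against 8.39, 8.83 and 8.84 in wild type muscle. It read 7.65, 7.92 and 8.16 in congenic hypothalamus, against 9.40, 8.19 and 8.04 in wild type hypothalamus. These values stood between percentile 12.9 and percentile 56.2 of the probes on their arrays, where signal and background could not be separated. Wild type hypothalamus array 1 was the highest of the 12 arrays for this gene too, one of the 38.1% of probes above the other 5 hypothalamus arrays there.

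The strain comparison asked whether these signals differed between congenic and wild type mice in either tissue. In muscle all 4 probes had a higher mean in congenic mice, and 51.0% of all probes did. Hba-a1 averaged 18.42 ± 0.49 in congenic and 17.70 ± 0.40 in wild type muscle (SD, n = 3 each). The difference was 0.72 on the log2 scale (SE 0.27, 95% interval 0.12 to 1.31), or 1.64-fold, with an adjusted p of 0.835 in limma over all probes. The beta-globin probe averaged 18.12 ± 0.45 in congenic and 17.58 ± 0.23 in wild type muscle, which differed by 0.53 (SE 0.23, 95% interval 0.03 to 1.04; limma adjusted p = 0.835). Alas2 averaged 11.18 ± 0.65 in congenic and 10.57 ± 0.48 in wild type muscle, with a difference of 0.61 (95% interval -0.29 to 1.51; limma adjusted p = 0.835). Slc4a1 averaged 8.83 ± 0.56 in congenic and 8.69 ± 0.26 in wild type muscle, with a difference of 0.14 (95% interval -0.87 to 1.14; limma adjusted p = 0.959).

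None of the 4 probes passed in muscle at an adjusted p of 0.05 in limma, where 6 of 33012 probes (0.0182%) did. At an unadjusted p under 0.05 the count was 2 of 4, the globin probes, against 5.01% of all probes. These 2 probes measure chains of the same protein in the same cells and are not separate evidence. For 0 of the 4 probes did the 3 congenic arrays separate from the 3 wild type arrays, which they did for 11.9% of all probes. Leaving out 1 array at a time kept the muscle difference of Hba-a1 between 0.45 and 0.94 and that of the beta-globin probe between 0.30 and 0.74. The difference of Alas2 lay between 0.27 and 0.91, and it was 0.33 without wild type array 2. The low end came without congenic array 3 for each of these probes, and without congenic array 3 the adjusted p of Hba-a1 was 0.911 in limma.

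In hypothalamus the globin probes had larger differences with far wider intervals. The beta-globin probe averaged 15.83 ± 1.76 in congenic and 12.94 ± 4.05 in wild type hypothalamus (SD, n = 3 each), which differed by 2.89 (95% interval -1.34 to 7.11; limma adjusted p = 0.936). Hba-a1 averaged 16.02 ± 2.18 in congenic and 13.84 ± 2.88 in wild type mice, with a difference of 2.18 (95% interval -1.34 to 5.70; limma adjusted p = 0.936). Without wild type array 1 these differences were 0.55 (95% interval -1.43 to 2.53) for the beta-globin probe and 0.52 (95% interval -1.88 to 2.92) for Hba-a1, with limma adjusted p-values of 0.950 and 0.959. Most of the difference over all 6 arrays was thus carried by that 1 array.

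Alas2 and Slc4a1 had differences below 0 in hypothalamus and did not pass the test. Alas2 averaged 10.72 ± 0.59 in congenic and 11.23 ± 1.43 in wild type hypothalamus, which gave a difference of -0.52 (limma adjusted p = 0.938), and 0.31 without wild type array 1 (0.944). Slc4a1 averaged 7.91 ± 0.25 in congenic and 8.54 ± 0.75 in wild type mice, with a difference of -0.63 (limma adjusted p = 0.936), and -0.20 without wild type array 1 (0.960). By limma 0 of the 4 probes and 0% of all probes passed in hypothalamus, with or without wild type array 1. At an unadjusted p under 0.05, 0 of the 4 were counted with all arrays, against 1.99% of all probes, and 0 without wild type array 1, against 5.33%. The number of probes without overlap was 0 of 4, against 9.16% of all probes, and 0 of 4 without wild type array 1, against 22.6%. A difference above 0 was found for 2 of 4, against 46.3% of all probes, and for 3 of 4 without wild type array 1, against 49.3%.

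**Figure D2:**
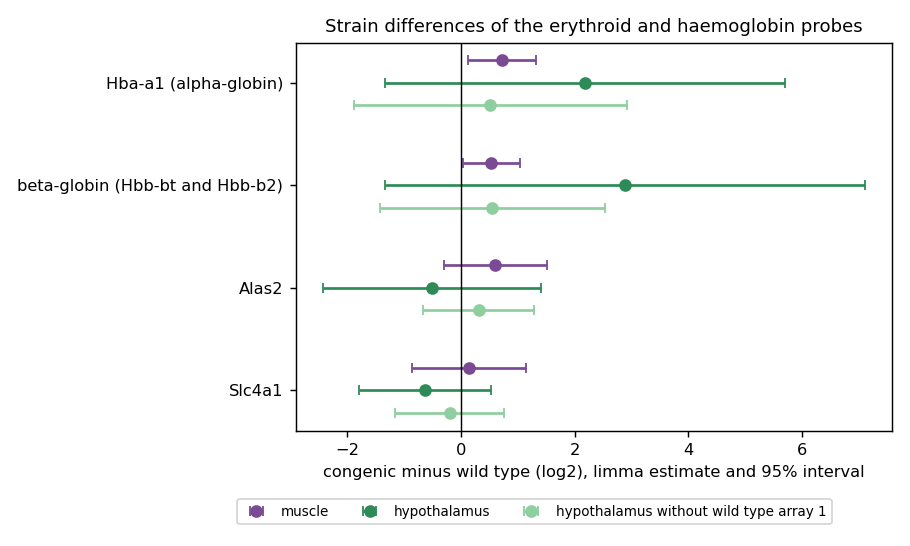
Difference between congenic and wild type means on the log2 scale (horizontal axis) for the 4 probes, with limma's 95% interval, in muscle, in hypothalamus and in hypothalamus without wild type array 1. The muscle intervals of both globin probes lie just above 0 before adjustment, and the hypothalamus intervals include 0 and narrow when wild type array 1 is left out.

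The strain effects of the 2 tissues were compared directly. Over the 12 arrays the muscle difference minus the hypothalamus difference was -1.47 for Hba-a1 (95% interval -5.21 to 2.28; limma adjusted p = 0.915) and -2.35 for the beta-globin probe (95% interval -6.83 to 2.12; limma adjusted p = 0.913). It was above 0 for 2 of 4, against 52.4% of all probes, namely 1.12 for Alas2 and 0.77 for Slc4a1 (limma adjusted p = 0.913 for both). None of these passed, and 0% of all probes did, while 3.63% of all probes and 0 of the 4 had an unadjusted p under 0.05. Without wild type hypothalamus array 1 the values for Hba-a1 and the beta-globin probe were 0.20 and -0.018.

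Levels in the 2 tissues are set side by side as a description, since the tissues were normalized apart. Hba-a1 was 2.40 log2 units higher in muscle than in hypothalamus of congenic mice and 3.86 higher in wild type mice, or 2.20 without wild type array 1. For the beta-globin probe the muscle level exceeded the hypothalamus level by 2.29 in congenic and 4.65 in wild type mice, or 2.31 without that array. Quantile normalization over all 12 arrays reduced the congenic differences to 1.62 for Hba-a1 and 1.51 for the beta-globin probe. Slc4a1 differed between the tissues by 0.92 in congenic and 0.15 in wild type mice, and Alas2 by 0.46 in congenic and -0.66 in wild type mice. Without wild type array 1 the wild type differences were 0.58 for Slc4a1 and 0.16 for Alas2, so the sign of the wild type value of Alas2 rests on that array. The mean was higher in muscle for 3 of the 4 probes, against 57.6% of all probes. Without wild type array 1 it was higher for 4 of 4, but the share of all probes was not computed for that setting. The beta-globin probe alone of the 4 had all 6 muscle arrays above all 6 hypothalamus arrays, as 13.3% of all probes did: its lowest muscle value was 17.41 and its highest hypothalamus value 16.85. For Hba-a1 the muscle arrays overlapped with congenic hypothalamus array 2. The order of group means for both globin probes ran from congenic muscle over wild type muscle and congenic hypothalamus to wild type hypothalamus, and no neighbours that share a tissue passed in limma.

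The probes for the chains of haemoglobin ran in parallel. In muscle, Pearson's r between Hba-a1 and the beta-globin probe over the 6 arrays was 0.983 (exact permutation p = 0.00139, two-sided, the smallest that 6 arrays allow; adjusted p = 0.0167 over 12 relations) and Spearman's rho was 1.00 (exact permutation p = 0.00278, adjusted p = 0.0333). Without the 2 arrays farthest from the median of Hba-a1, r was 0.994. In hypothalamus r was 0.973 (exact permutation p = 0.00417, adjusted p = 0.025) and rho 0.943 (exact permutation p = 0.0167, adjusted p = 0.0667). Without the 2 farthest arrays r was 0.985, and without wild type array 1 alone it was 0.973.

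The difference of 2 probes on an array has no meaning as a level, and only its change between arrays was read. Hba-a1 minus beta-globin was 0.27, 0.29 and 0.35 in congenic muscle, against 0.16, -0.09 and 0.28 in wild type muscle. In hypothalamus it was -0.09, 0.90 and -0.22 in congenic mice, against 2.25, 0.20 and 0.27 in wild type mice. Wild type hypothalamus array 1 held the widest gap, with the beta-globin probe at percentile 33.6 of its array and Hba-a1 at percentile 68.3. The beta-globin value there lies in the range where signal and background could not be separated, so the gap on that array is not an exact measure.

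Alas2 followed the globins in muscle and not in hypothalamus. Its r with Hba-a1 was 0.938 in muscle (exact permutation p = 0.0125, adjusted p = 0.03), with a rho of 0.829 (exact permutation p = 0.0583, adjusted p = 0.117). Without the 2 arrays farthest from the median of Alas2, r was 0.492, so the relation rests largely on congenic array 3 and wild type array 2. In hypothalamus r was -0.738 (exact permutation p = 0.103, adjusted p = 0.16), and without wild type array 1 it was 0.149. Slc4a1 had an r of 0.548 with Hba-a1 in muscle (exact permutation p = 0.268, adjusted p = 0.292) and of -0.912 in hypothalamus (exact permutation p = 0.0208, adjusted p = 0.0417). The rho of Hba-a1 with Slc4a1 in hypothalamus was -0.886 (exact permutation p = 0.0333, adjusted p = 0.1), and its r was -0.766 without the 2 farthest arrays and -0.668 without wild type array 1.

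**Figure D3:**
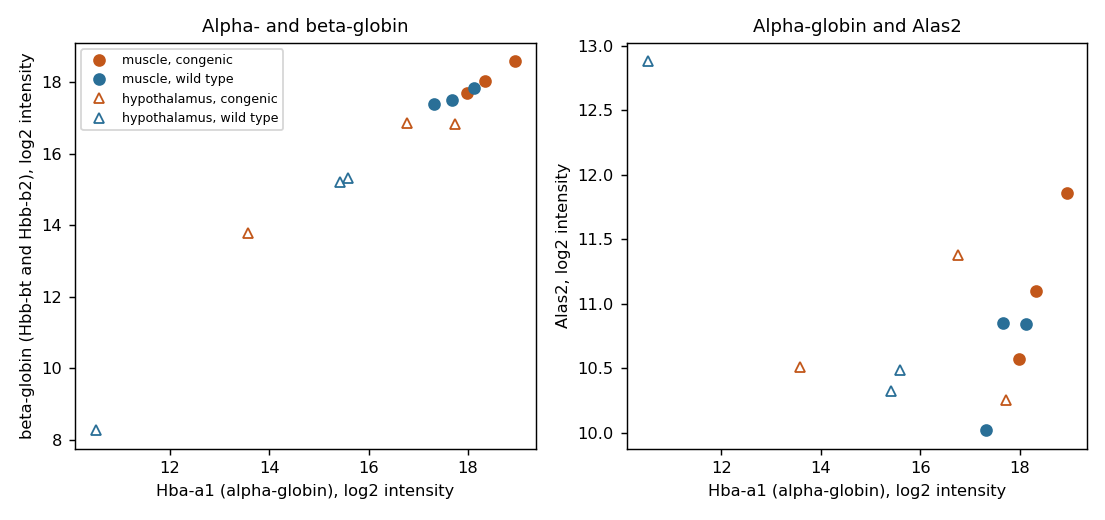
Log2 intensity of the beta-globin probe (left) and of Alas2 (right) against Hba-a1, 1 point per array; filled circles are muscle, open triangles hypothalamus, and colours mark the strain. The globin probes run together from wild type hypothalamus array 1 (10.52 and 8.27), where beta-globin is farthest below Hba-a1, to congenic muscle array 3 (18.94 and 18.60), while Alas2 is highest, at 12.88, on the hypothalamus array with the lowest Hba-a1.

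Other erythroid genes were mostly of ordinary brightness. Of 37 genes of embryonic globins, the red cell membrane and skeleton, erythroid transcription factors and iron or haem transport, 29 had a probe. Their median lay between 8.19 and 9.40 over the 12 arrays, near the array medians. Of the 29, 19 stayed under the 75th percentile of probes on every array, as 55.6% of all probes did, among them Gata1 and Klf1, the transcription factors of the erythroid lineage, and the Rh-complex gene Rhag, which were picked out after their values were seen. The 3 brightest were Abcb10, a mitochondrial transporter linked to haem synthesis, Dmtn, a protein of the membrane skeleton, and Tmod1, which caps actin filaments in red cells and muscle. Abcb10 averaged 14.20 and 14.14 in congenic and wild type muscle and 13.79 and 14.22 in congenic and wild type hypothalamus. Tmod1 averaged 15.53 and 15.59 in congenic and wild type muscle and 9.81 and 8.94 in congenic and wild type hypothalamus. Dmtn averaged 10.23 and 11.08 in congenic and wild type muscle and 15.00 and 14.60 in congenic and wild type hypothalamus. Without wild type array 1 the hypothalamus difference of Dmtn went from 0.39 to -0.94 and that of Abcb10 from -0.42 to 0.12. That of Tmod1 went from 0.87 to 0.27. The strain order of the hypothalamus means of Dmtn and Abcb10 thus rests on that array.

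For the strain difference this list had 13 genes above 0 and 16 below it in muscle, with a median of -0.18, against 0.01 for all probes. Without wild type array 1 it had 14 above and 15 below in hypothalamus, with a median of -0.07, against -0.01 for all probes. In limma 0 of the 29 passed in either tissue, with or without wild type hypothalamus array 1. At an unadjusted p under 0.05 the count was 1 of 29 in muscle, against 5.01% of all probes, and 0 of 29 in hypothalamus, against 1.99%, or 5.33% without wild type array 1.

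Genes of haem synthesis and breakdown, which every cell needs, had mostly differences above 0 in congenic muscle. Of 11 measured genes 10 had differences above 0, against 51.0% of all probes, with a median of 0.28, against 0.01 for all probes. In limma 0 passed, and 2 of 11 had an unadjusted p under 0.05, against 5.01% of all probes. The 3 brightest were Hmox2, the constitutive haem oxygenase, Alas1, the form of the first synthesis enzyme found in all tissues, and Urod, a later enzyme of the pathway. Alas1 averaged 15.32 in congenic and 15.04 in wild type muscle, Urod 14.79 in congenic and 14.42 in wild type muscle, and Hmox2 14.25 in congenic and 14.00 in wild type muscle. Congenic array 3 read highest for each: 15.974 for Alas1, 15.383 for Urod and 14.655 for Hmox2. The other congenic arrays read at most 15.054, 14.692 and 14.218. For Cpox and Hmox1 it was not the highest congenic array. How far the count of 10 rests on that array was not tested. In hypothalamus 10 of the 11 differences were above 0 over all arrays, against 46.3% of all probes. Their median was 0.90, against -0.07 for all probes. Without wild type array 1, 3 of 11 were above 0, against 49.3%, and the median was -0.29, against -0.01. On that array 10 of the 11 genes lay below the other 5 hypothalamus arrays, as 28.0% of all probes did.

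Globins of other cells were bright in the tissue they are known from. Mb, the oxygen-binding myoglobin of muscle, averaged 17.67 ± 0.73 in congenic and 17.48 ± 0.69 in wild type muscle, and 8.70 ± 1.67 and 8.62 ± 1.10 in congenic and wild type hypothalamus (SD, n = 3 each). Ngb, the neuroglobin of neurons, averaged 8.53 ± 0.48 and 7.59 ± 0.48 in congenic and wild type muscle, and 13.73 ± 0.60 and 12.03 ± 3.5 in congenic and wild type hypothalamus. On wild type hypothalamus array 1 Ngb read 7.99, against 13.31 to 14.42 on the other 5. Neither passed the strain test in either tissue.

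Of other blood cell markers, 4 of 8 neutrophil, 3 of 5 platelet, 3 of 3 B cell and 3 of 3 T cell genes measured stayed under the 75th percentile on every array, against 55.6% of all probes. The platelet gene Pf4, which macrophages also express, was the brightest of these genes in muscle. It read 16.40, 16.28 and 16.03 in congenic muscle, against 15.95, 14.64 and 15.48 in wild type muscle, and the groups did not overlap, as for 11.9% of all probes. It did not pass in limma. Of the 5 platelet genes measured, 3 had muscle differences above 0, against 51.0% of all probes. The median of these 5 differences was 0.07, against 0.01 for all probes. Pf4 read 10.29, 10.04 and 8.03 in congenic hypothalamus, against 11.40, 8.03 and 8.47 in wild type hypothalamus. The neutrophil genes S100a8 and S100a9 read 12.59 and 12.68 on wild type hypothalamus array 1, where the globin probes were lowest, against at most 9.38 and 11.06 on the other 5 hypothalamus arrays. Of the 8 neutrophil genes 3 lay above the other 5 arrays on it and 5 within them, while 38.1% of all probes lay above. Pf4, S100a8 and S100a9 were singled out after their values were seen. The part of any blood cell in these values was not tested.

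Among the probes that were ranked, the 5 genes whose pattern was most like that of the globins were on none of the erythroid lists. The ranking left out the members and dim probes, and with them many genes of those lists. The absence of erythroid genes among the leading 5 was therefore largely set by the filter. Likeness was the lower of 2 values of r with the mean profile of both globin probes, over the 6 muscle arrays and over the 6 hypothalamus arrays, among 7377 probes of 1 gene that were brighter than the median in both tissues. The leading 5 were Clic1, an intracellular chloride channel protein, with 0.982, Elob, the elongin B subunit of ubiquitin ligases, with 0.980, Fam229b with 0.972, Ost4, a small subunit of the oligosaccharyltransferase, with 0.970, and B9d1, a protein of the ciliary base, with 0.968. Such values are not rare with so few arrays: 92 of the 7377 probes (1.25%) had a likeness over 0.9. Clic1 and Elob lie on chromosome 17, and whether within the CAST segment is not given in the labels. Of the 5 genes, 2 stayed among the leading 5 without wild type hypothalamus array 1.

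Elob shows the pattern at a brightness near that of the globins. It read 18.52, 18.61 and 19.02 in congenic muscle, against 18.34, 18.33 and 18.57 in wild type muscle. It read 15.90, 16.64 and 13.89 in congenic hypothalamus, against 8.28, 15.32 and 15.17 in wild type hypothalamus. As for the globins, congenic array 3 was the highest in muscle, and in hypothalamus wild type array 1 was the lowest and congenic array 3 the next lowest. Elob was chosen by its r with the globins over these same arrays, so this likeness follows from the choice. Among the members themselves, the r with the globin profile was 0.935 for Alas2 and 0.595 for Slc4a1 in muscle. In hypothalamus it was -0.781 for Alas2 and -0.954 for Slc4a1, and without wild type array 1 it was 0.249 for Alas2 and -0.734 for Slc4a1.

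**Figure D4:**
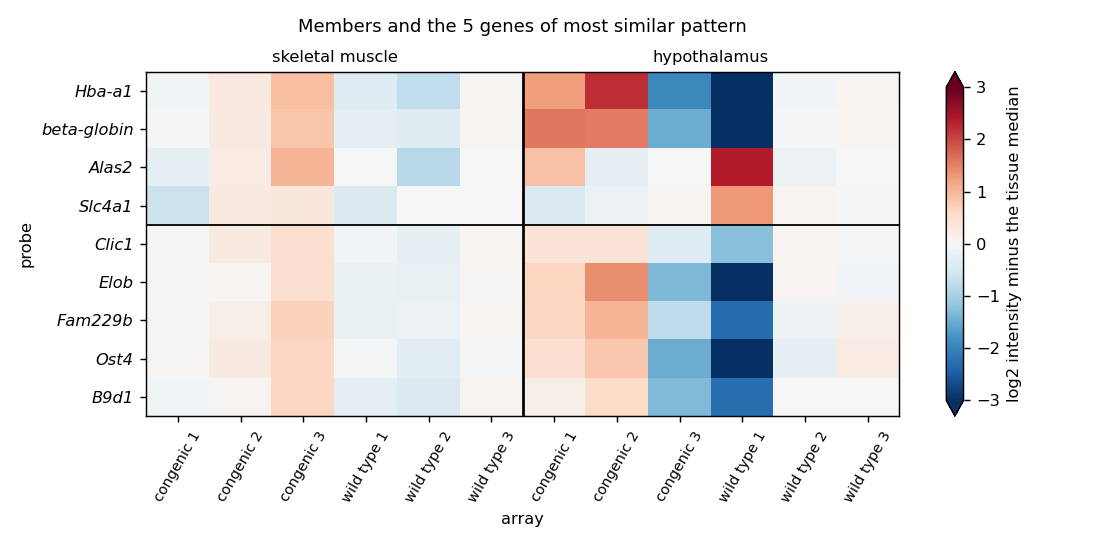
Log2 intensity minus the median of the tissue (colour, limited to 3 units either way) for the 4 member probes, above the line, and the 5 genes with the most similar pattern, on each array. The globin probes and the 5 genes, which were chosen by their likeness over these arrays, share the extreme arrays. These are the low wild type hypothalamus array 1 and congenic hypothalamus array 3 and the high congenic muscle array 3. Alas2 and Slc4a1 are high on wild type hypothalamus array 1.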

How the data were processed

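RNA from muscle and hypothalamus was labelled with digoxigenin, per the labels' protocols, and read on 1 array per sample. The authors deposited 1 table of log2 values. For software and background correction the sources used here give nothing. The tissues were normalized apart, so no test sets them against each other. All 33012 probes were used as deposited, with no floor. Gene names came from the platform's annotation (14411 with 1 gene symbol, 247 with several, 18354 with none), symbols updated through a table of GRCm38.p6, and the probe brightest over the 12 arrays stood for a gene in lists.

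Congenic minus wild type was tested per tissue, and the difference between tissues over 12 arrays, by lmFit and trended eBayes of limma 3.58.1 (R 4.3.3), Benjamini-Hochberg over all probes and a threshold of 0.05. The fits were also run on simulated arrays with known changes. These changes were larger than the muscle differences of the members, so the simulation shows nothing about differences of that size. Correlations used exact permutation (Python 3.11.15). Alternatives were weights, floors, filters, normalization, a replicate block and each array left out. Named are all member probes, the 3 brightest genes of each erythroid, haem and globin list, and the 5 of most similar pattern; others are said to be chosen after their values were seen. Members and lists were chosen with earlier results of these data known. The series text calls the 3 mice per strain biological replicates.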

Additional observations from a re-analysis of the deposited data

How the results depend on the processing

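The number of probes called in muscle, 6 as reported, was 2 without a mean-variance trend, 2 with values floored at the 20th percentile and 1 with all 12 arrays in 1 fit, and 2 to 8 with 1 array left out (leaving out congenic array 2 gave 3, wild type array 2 gave 2 and wild type array 3 gave 3). None of the 4 member probes passed limma under any alternative, and in hypothalamus and for the difference between tissues 0 probes were called under every alternative. The hypothalamus difference of Alas2 turned to 0.44 with array weights and 0.31 without wild type array 1, with a range of -0.97 to 0.31 over arrays left out. The muscle difference of Slc4a1 ranged from -0.035 to 0.46 over arrays left out, and the difference between tissues of Hba-a1 from -2.69 to 0.20. Of the 5 genes of most similar pattern, 2 remained among the leading 5 without wild type hypothalamus array 1. The number of member probes with a higher mean in muscle, 3 as reported, was 3 to 4 with 1 array left out (4 when wild type muscle array 2 or wild type hypothalamus array 1 was left out). With quantile normalization over 12 arrays the wild type muscle means of Hba-a1 and the beta-globin probe were 17.29 and 17.16, below the reported means by more than 1 SD. Whether the numbers shared by congenic and wild type arrays pair the samples was not settled. In muscle the deviations of same-numbered arrays correlated at 0.0147 to 0.0695, against -0.0835 to 0.017 for different numbers. In hypothalamus same-numbered arrays correlated at -0.129 to 0.138, against -0.156 to 0.144 for different numbers. With the replicate block limma called 6 probes in muscle and 0 in hypothalamus and moved no member over the threshold (adjusted p of 0.756 for Hba-a1 in muscle). In muscle each array correlated best with its own number except wild type array 2. Slc4a1 lay under the median brightness in both tissues and got no value when dim probes were left out. Every member has 1 probe, so averaging the probes of a gene was not run. The number of arrays and the unknown background limit what dim probes can show.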

Other observations

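Genes of high likeness to the globin profile spanned less of the genome than others. The 100 genes with the highest likeness had a median genomic span of 7303 bases, introns included, against 18882 bases over the 7375 eligible probes with a span. Among 66 ribosomal protein probes 7 (10.6%) had a likeness over 0.8, against 5.11% of all 7377 eligible probes, and without wild type hypothalamus array 1 the shares were 19.7% and 3.80%. These measures were chosen after the values were seen.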
